A study of Mus musculus with 16 samples.

Results

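Brown adipose tissue of newborn mice was compared with that of young adults. The comparison takes the 3 arrays of 8-week-old C57BL6/N mice (8W) against the 4 arrays of pups on day 4 after birth (P4), 7 of the 16 arrays of a series that also sampled embryonic day 18 (E18), postnatal day 10 (P10) and 4 weeks of age (4W). The arrays were chosen by the ages in their titles. The labels name no treatment, transgene or mutation and give the same strain, C57BL6/N, for all arrays. They do not give the sex of the mice, the depot, the housing temperature or the time of day, nor whether a replicate is 1 mouse or a pool, so a p-value here speaks for the variation among these arrays and may be of technical origin.

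Total RNA of the whole tissue was labelled with Cy3 and hybridised to Agilent 1-colour arrays, whose probes are read as fluorescence intensity. A log2 level below is the log2 signal of a gene's probe minus the 75th percentile of its array, so 0 is the signal that 75% of spots do not exceed, and levels of different probes cannot be set against each other. The 75th percentile lay between 351 and 753 intensity units at P4 and between 449 and 485 at 8W. Between 51.2% and 58.4% of probes were well above background at P4 and between 44.7% and 50.1% at 8W. P4 replicate 3 had the lowest 75th percentile of all. The median SD of a gene was 0.12 at P4 and 0.083 at 8W on the log2 scale, and with so few arrays precision is limited by their number. Slide 2 held all 8W arrays and P4 replicate 1, and slide 1 held the other P4 arrays, so both ages met only on slide 2.

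These ages were chosen as those with the least skeletal muscle signal, so their muscle levels describe the choice and test nothing. The mean log2 level of the skeletal muscle markers lay between -1.99 and -1.79 at P4 and between -3.57 and -3.27 at 8W, against means of 1.19 at E18, 1.76 at P10 and 2.85 at 4W. Muscle signal was thus lower at 8W than at P4. The brown adipocyte markers had mean levels between 4.39 and 4.59 at P4 and between 4.45 and 4.49 at 8W. Xist, the RNA of the inactive X chromosome, was not well above background on any P4 or 8W array and was so on all 3 P10 arrays, while the Y-linked Ddx3y was measured on every P4 and 8W array and on no P10 array. Both genes were looked at after their values were seen. Values at P10 and 4W below stand beside more muscle RNA, and those at P10 also beside these differences. The part of either was not tested.

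Brown adipocytes burn fatty acids in mitochondria that are uncoupled by UCP1, so that the energy is released as heat. Noradrenaline from sympathetic nerves starts this through beta-adrenergic receptors, which raise cyclic AMP, drive lipolysis and induce genes such as Ppargc1a, a coactivator of mitochondrial genes, and Dio2, whose product activates thyroid hormone within brown adipocytes. Newborn mice depend on this heat, take most of their calories from fat-rich milk and still enlarge the tissue by cell division. Adults are weaned to a diet rich in carbohydrate, from which fat cells can make fatty acids themselves.

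Most of the transcriptome differed between the ages. Of the 16436 genes tested with limma, 11048 (67.2%) had a Benjamini-Hochberg adjusted p below 0.05, called passing here. The 5505 genes that rose from P4 to 8W made up 33.5% and the 5543 that fell 33.7%. In 10930 genes (66.5%) the P4 arrays lay either all above or all below the 8W arrays. At least 2-fold rises were called in 1746 genes (10.6%) and at least 2-fold falls in 2123 (12.9%). The median difference over all genes was -0.05 on the log2 scale. These shares are the background against which the counts in each gene list below are to be read. With each array scaled to its median instead, the median of all genes moved to 0.22, and 6497 genes rose and 3193 fell, so small differences have no settled direction. With slide as a block 5315 rose and 4973 fell, and on slide 2 alone, with its single P4 array, 4829 rose and 4218 fell.

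**Figure D1:**
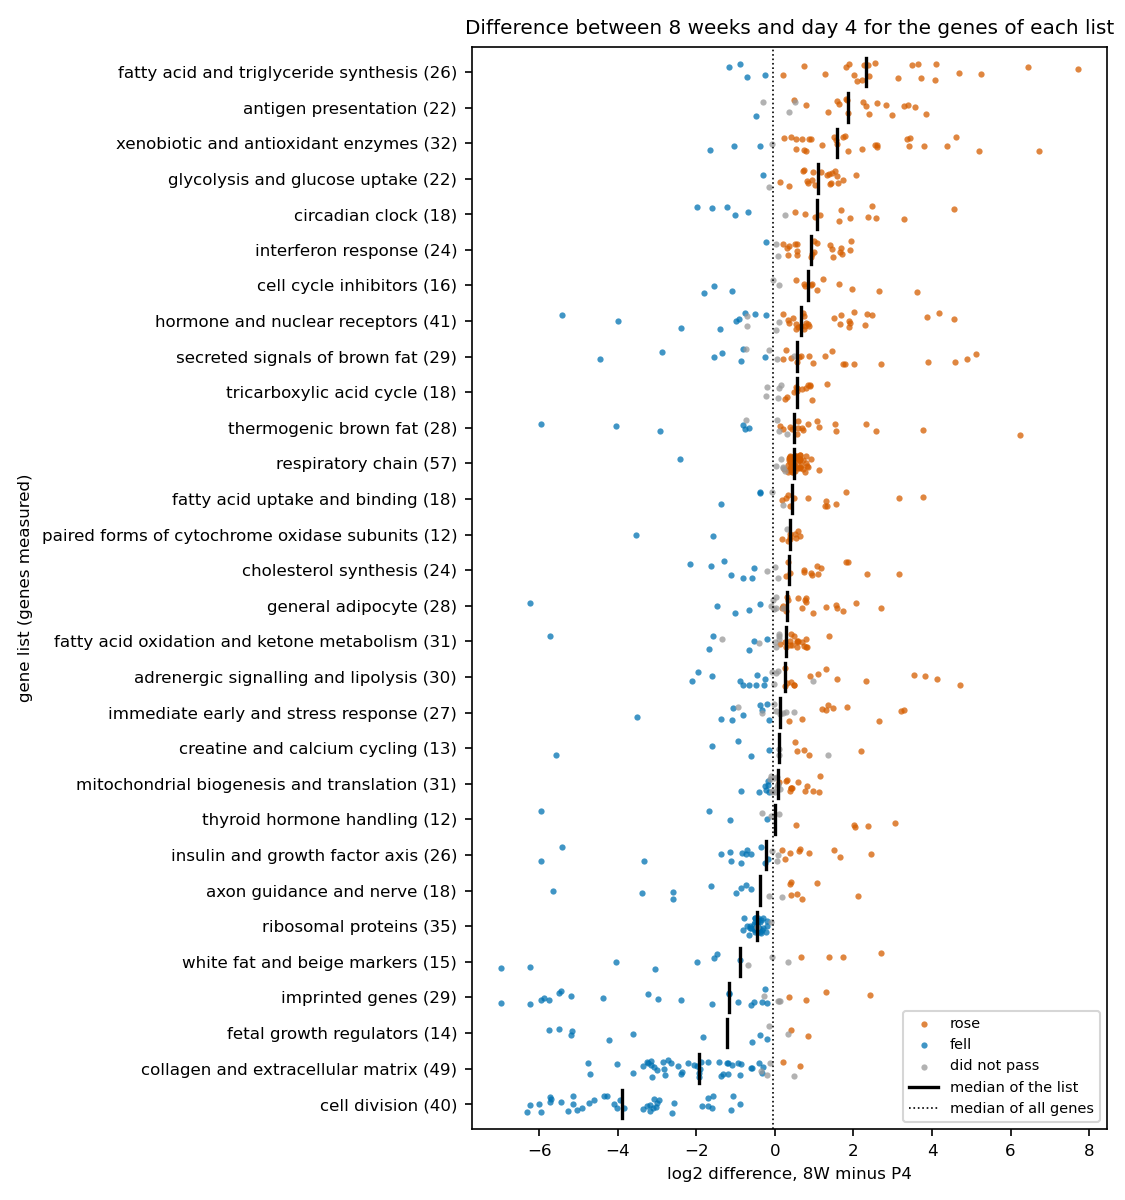
Each point is 1 gene of a list, placed by its log2 difference between 8W and P4 and coloured by whether it rose, fell or did not pass the test; black bars are list medians and the dotted line is the median of all genes at -0.05. The lists run from cell division, with a median of -3.90, to fatty acid and triglyceride synthesis, with a median of 2.33.

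The heat-producing programme did not move as a block. Of 28 genes of the thermogenic list, 18 rose, 6 fell and 4 did not pass, and their median was 0.50. The largest differences lay in opposite directions. Dio2 and Ppargc1a were far higher in the pups, whereas Acot11 and Fabp3 were far higher in the adults. In a whole tissue, fewer cells of a type and less RNA per cell cannot be told apart.

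Dio2 showed the largest fall of the list. Its log2 level was 4.07, 4.07, 3.87 and 4.03 on the P4 arrays and -1.96, -1.91 and -1.99 on the 8W arrays. Every pup array stood far above every adult array, and the fall came to 62.3-fold (-5.96 ± 0.05 SE, n = 4 and 3 arrays, adjusted p = 1.4e-16). Ppargc1a had levels of 6.24, 6.21, 6.30 and 6.25 at P4 and 2.16, 2.22 and 2.23 at 8W, a 16.5-fold fall (-4.04 ± 0.05, adjusted p = 3.3e-15). The ages were thus separated by many times the spread within either of them. Both genes were already much lower at P10, where their means were 1.06 and 3.50. Gk, glycerol kinase, which lets brown fat reuse the glycerol freed by lipolysis, fell 7.64-fold (-2.93 ± 0.06), but its mean at 4W, 2.57, was as high as at P4.

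Ucp1 itself, the uncoupling protein, fell by a modest amount. Its log2 level was 9.22, 9.54, 10.04 and 9.54 at P4 and 8.78, 8.73 and 8.91 at 8W. The arrays did not overlap, and the fall was 1.71-fold (-0.78 ± 0.15, adjusted p = 0.00047). On slide 2 alone, whose single P4 array had the lowest pup value, the difference was -0.42 (adjusted p = 0.032). The transcription factor Ebf2, which keeps brown adipocytes in their fate, fell 1.75-fold (-0.81 ± 0.07). Prdm16, the coregulator of brown fat identity, rose 1.47-fold (0.55 ± 0.05), and Lhx8, a transcription factor gene used as a marker of classical brown fat, rose 2.88-fold (1.53 ± 0.06). Identity genes thus differed far less than Dio2 and Ppargc1a. Zic1, another such marker chosen after its values were seen, did not pass (0.05 ± 0.09, adjusted p = 0.64).

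Acot11, a thioesterase that is induced in brown fat and splits acyl-CoA, had the largest rise of the list. Its log2 level was -0.16, -0.24, 0.00 and -0.12 at P4 and 6.04, 6.14 and 6.15 at 8W, a 75.5-fold rise (6.24 ± 0.06, adjusted p = 3.2e-16). It had reached 3.39 at P10 and 5.86 at 4W, so most of the change lay before 4 weeks. Fabp3, a fatty acid binding protein of oxidative tissues, rose 13.6-fold (3.76 ± 0.07), with a mean of 7.49 at P10 against 8.35, 8.32 and 8.27 on the 8W arrays. Pank1, which makes the precursor of coenzyme A, rose 5.92-fold (2.56 ± 0.07). Smaller rises were seen for Cidea, a lipid droplet protein (1.64-fold, 0.72 ± 0.09), Elovl3, an elongase of very long fatty acids (1.6-fold, 0.68 ± 0.12), Kcnk3, a potassium channel of brown adipocytes (2.19-fold, 1.13 ± 0.04), and Cox7a1, a subunit of cytochrome oxidase (1.49-fold, 0.58 ± 0.08). The Cox7a1 call was lost in the deposited quantile-normalized values, where the difference was -0.03. Ppara, a nuclear receptor for fatty acids, and Cox8b, a further oxidase subunit, did not pass, at 0.09 ± 0.05 (adjusted p = 0.089) and 0.30 ± 0.14 (adjusted p = 0.074). Cox8b has no settled direction: it passed as a rise with slide as a block (0.62) and on slide 2 alone (0.68, adjusted p = 0.0092), and as a fall in the deposited values (-0.17, adjusted p = 0.046). Ppara passed as a rise with median scaling (0.36) and with array weights (0.12).

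**Figure D2:**
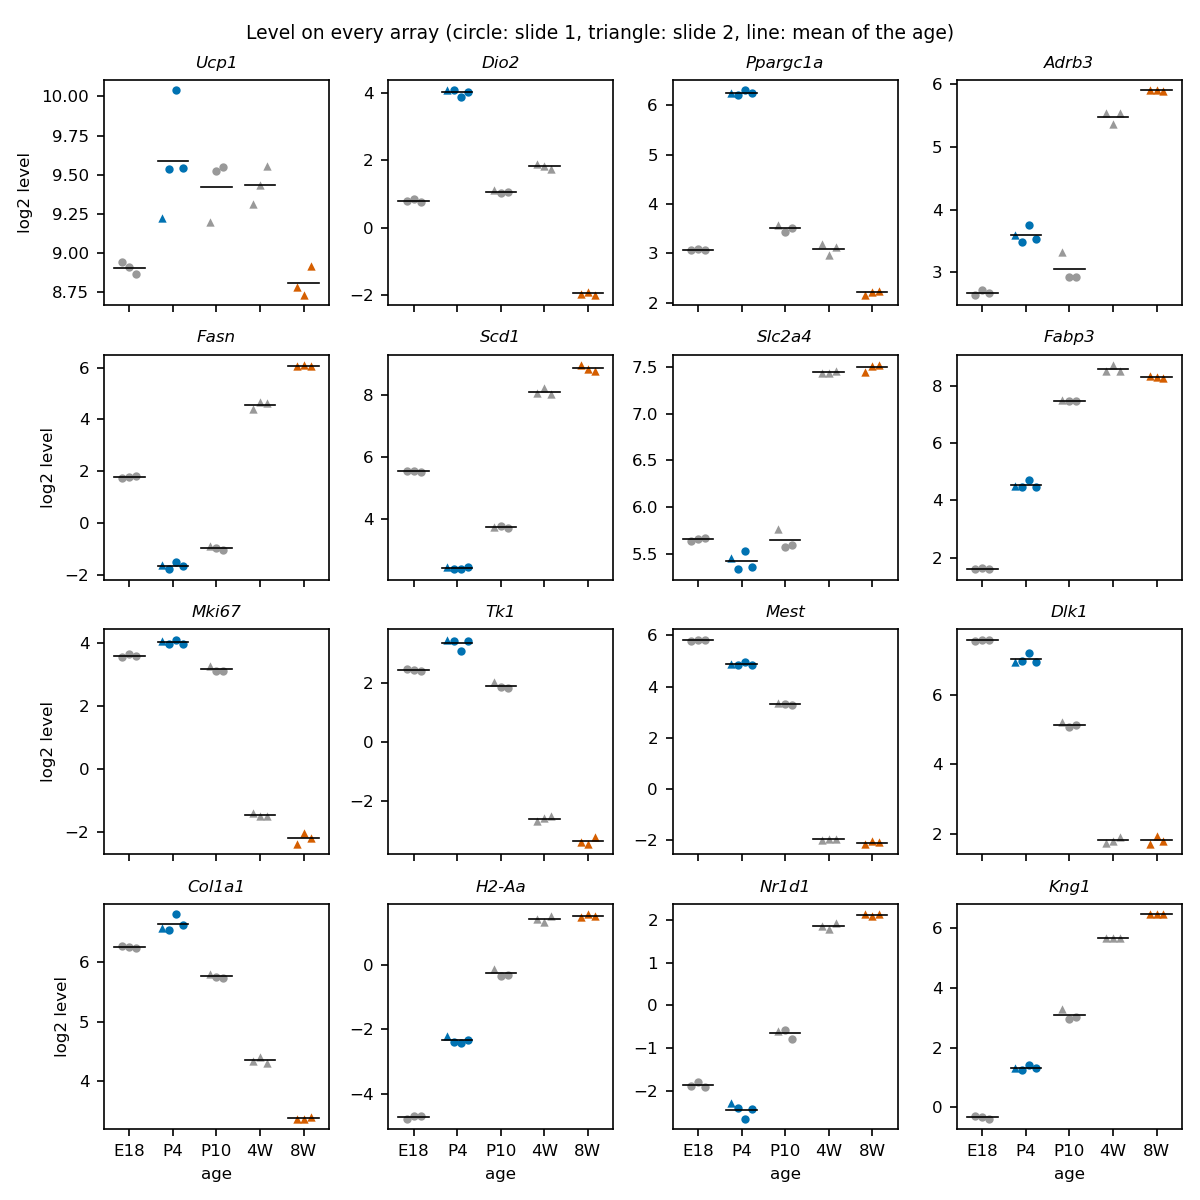
Log2 level of 16 genes on every array at the 5 ages, relative to the 75th percentile of the array; blue marks P4, orange 8W and grey the other ages, circles slide 1 and triangles slide 2, and lines are means. Dio2 and Ppargc1a are highest at P4 and lowest at 8W, while Fasn and Scd1 are lowest at P4 and highest at 8W.

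Transcripts at the receiving end of the sympathetic signal moved both ways. Of 30 genes of adrenergic signalling and lipolysis, 15 rose, 10 fell and 5 did not pass, with a median of 0.25. Over all genes 33.5% rose and 33.7% fell. Adrb3, the beta-adrenergic receptor typical of fat cells, had log2 levels of 3.59, 3.48, 3.75 and 3.54 at P4 and 5.91, 5.91 and 5.89 at 8W, a 4.96-fold rise (2.31 ± 0.09, adjusted p = 9.9e-11). It was lower at P10, at 3.06, and reached 5.48 at 4W. Rgs2, which damps signalling through G proteins, rose from 3.98, 3.89, 3.99 and 3.90 to 7.68, 7.79 and 7.84, or 14.2-fold (3.83 ± 0.05). Adcy10, a bicarbonate-sensitive adenylate cyclase, was not well above background at P4 and was at least 8.23-fold higher at 8W. Adra1d, an alpha-adrenergic receptor, rose 11.7-fold in the fit (3.55 ± 0.61), but 8W replicate 2 read 2.94 against -0.45 and -0.43 on the other adult arrays, and the call was lost on slide 2 alone (adjusted p = 0.059). Without 8W replicate 2 its rise was 2.43 on the log2 scale.

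Among the genes that fell were Adcy5, an adenylate cyclase (4.32-fold, -2.11 ± 0.21), Pde4b, a phosphodiesterase that degrades cyclic AMP (3.02-fold, -1.59 ± 0.07), and G0s2, an inhibitor of the main triglyceride lipase (3.89-fold, -1.96 ± 0.06). G0s2 was higher at 4W, at 6.0, than at P4, so its level did not fall steadily. Lipe, hormone-sensitive lipase, rose 3.02-fold (1.59 ± 0.09). Receptor, cyclase and lipase genes therefore did not share a direction.

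Synthesis of fatty acids showed the largest rise of any list. Of 26 genes, 22 rose, 4 fell and none failed the test, 20 rose at least 2-fold, and the median was 2.33 against -0.05 over all genes. The mean log2 level of the list lay between 2.87 and 2.93 at P4 and between 5.38 and 5.42 at 8W. At E18 it was 3.89, so the pups had a lower level than the embryos as well. It was 3.34 at P10 and 4.85 at 4W.

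Fasn, fatty acid synthase, stood at -1.61, -1.78, -1.51 and -1.67 at P4 and at 6.08, 6.10 and 6.06 at 8W. The rise was 211-fold (7.72 ± 0.07, adjusted p = 1.9e-16). Scd1, the desaturase that makes monounsaturated fatty acids, had levels of 2.45, 2.40, 2.38 and 2.46 at P4 and 8.96, 8.84 and 8.78 at 8W, an 86.7-fold rise (6.44 ± 0.05). Acaca, acetyl-CoA carboxylase, which commits carbon to the pathway, rose from 3.71, 3.58, 3.63 and 3.56 to 9.02, 8.68 and 8.91, or 38.0-fold (5.25 ± 0.08). The enzymes on either side of that step moved with it: Acly, which supplies acetyl-CoA from citrate, rose 16.9-fold (4.08 ± 0.09), and Elovl6, which lengthens the product, 8.79-fold (3.14 ± 0.12). Pnpla3, a lipid droplet protein regulated by feeding, rose 25.9-fold (4.69 ± 0.11). Scd3, a desaturase closely related to Scd1, rose 90.5-fold (6.50 ± 0.09) by its probe with the highest mean, but another of its probes fell, and the difference was -0.27 both with quantile normalization and in the deposited values, so its direction is uncertain.

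Srebf1, the transcription factor that drives these genes under insulin, rose 4.05-fold (2.02 ± 0.09), from -0.12, -0.26, -0.62 and -0.30 to 1.66, 1.77 and 1.66, and was highest at 4W, at 2.82. Mlxipl, the carbohydrate-sensing factor, rose 4.63-fold (2.21 ± 0.10) by 1 probe and fell by its other probe. Thrsp, a lipogenic protein induced by thyroid hormone, rose 5.19-fold (2.38 ± 0.05). In contrast, Dgat1, which completes triglycerides from fatty acids, fell 2.24-fold (-1.16 ± 0.07), from 5.68, 5.58, 5.48 and 5.49 to 4.42, 4.42 and 4.35. Elovl1 fell 1.65-fold (-0.72 ± 0.08). The fall of Fads2, a desaturase of polyunsaturated fatty acids, rests on 1 P4 array above background and was lost with another background correction. Fasn, Acaca and Acly thus rose, while Dgat1 fell.

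The promoters of 3 synthesis genes are shown, those with the largest rises among genes with a single RefSeq promoter window and the motif CCAAT. The motif had to lie within 150 bases upstream of the annotated start. It was chosen because the genes moved together and CCAAT, bound by the factor NF-Y, is known as a partner of the SREBP factors. Genes with several windows or on 1 excluded chromosome were passed over, so a gene not shown may also hold the motif. The windows come from RefSeq on build GRCm38.p6, were matched by symbol, and are printed on the strand of the gene, 5′ to 3′, ending at the last base before the start; capitals mark CCAAT, read on either strand. Fasn lies at chr11:120824548-120824697 on the minus strand, Pnpla3 at chr15:84167666-84167815 on the plus strand and Acss2, acetyl-CoA synthetase, at chr2:155517893-155518042 on the plus strand.
Fasn: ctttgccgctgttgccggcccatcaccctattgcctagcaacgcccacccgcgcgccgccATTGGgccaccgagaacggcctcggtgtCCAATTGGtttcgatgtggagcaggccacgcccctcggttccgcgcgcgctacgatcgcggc
Pnpla3: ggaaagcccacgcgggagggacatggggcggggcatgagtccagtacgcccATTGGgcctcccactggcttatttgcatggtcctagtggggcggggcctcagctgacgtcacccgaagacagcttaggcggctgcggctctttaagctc
Acss2: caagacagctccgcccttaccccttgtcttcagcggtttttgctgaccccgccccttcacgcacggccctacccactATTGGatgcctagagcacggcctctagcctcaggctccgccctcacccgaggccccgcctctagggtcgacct
Acss2 was chosen for this display, rose 17.0-fold (4.09 ± 0.07) and is not otherwise covered by the rule for named genes. In windows of 250 bases before to 50 after the start, searched on both strands, CCAAT was found in 14 of the 21 synthesis genes that have a window (66.7%), in 16 of 16 cholesterol synthesis genes and in 41.1% of all 27025 genes with a window. TCACNCCAC, a sterol response element, was found in 1 gene of each of these lists and in 1.44% of all genes. A match is a description of letters and shows no binding.

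Uptake of fatty acids also rose, but less. Of 18 genes 13 rose, 3 fell and 2 did not pass, with a median of 0.43. Acsl5, which activates fatty acids for synthesis and oxidation, rose 8.98-fold (3.17 ± 0.06) and Slc27a2, a fatty acid transporter, 2.94-fold (1.56 ± 0.05). Cd36, the main fatty acid translocase, rose 1.25-fold (0.33 ± 0.06). Lpl, the lipase that frees fatty acids from circulating triglyceride, had levels of 7.09, 7.19, 7.33 and 7.25 at P4 and 7.43, 7.31 and 7.46 at 8W. Those arrays overlap, and its call (0.18 ± 0.07, adjusted p = 0.043) was lost under 13 of the alternatives. Fabp5, a binding protein of many cell types, fell 2.60-fold (-1.38 ± 0.06), and Fabp4, the adipocyte form, did not pass (0.20 ± 0.14, adjusted p = 0.21). It passed as a rise with slide as a block (0.52) and on slide 2 alone (0.57, adjusted p = 0.0028), and as a fall in the deposited values (-0.26, adjusted p = 0.00081).

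Sugar handling rose as a group. Of 22 genes of glycolysis and glucose uptake, 20 rose, 1 fell and 1 did not pass, 12 rose at least 2-fold, and the median was 1.09. Slc2a4, the insulin-responsive glucose transporter GLUT4, had levels of 5.46, 5.33, 5.53 and 5.36 at P4 and 7.45, 7.51 and 7.52 at 8W, a 4.22-fold rise (2.08 ± 0.06, adjusted p = 1.9e-12). At 4W it had the adult level, 7.44. Pkm, pyruvate kinase, rose 3.31-fold (1.72 ± 0.04) and Pfkp, a phosphofructokinase, 2.98-fold (1.58 ± 0.05). Tpi1, triose phosphate isomerase, was the gene that fell (1.24-fold, -0.31 ± 0.08). Its call was lost under 4 alternatives, among them median scaling and slide as a block. Slc2a5, the fructose transporter, is not on this list and was among the largest rises of all. It was not well above background on any P4 array, read 3.96, 3.87 and 3.81 at 8W, and was at least 299.6-fold higher.

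In the mitochondrion, the respiratory chain rose evenly and by little. Of its 57 genes, 51 rose, 1 fell and 5 did not pass, but only 1 rose at least 2-fold, and the median was 0.49. Ndufa1, a subunit of complex I, had the largest rise, from 7.41, 7.47, 7.64 and 7.46 to 8.50, 8.66 and 8.65 (2.16-fold, 1.11 ± 0.07). The exception was Atp5g1, 1 of several genes that encode the same ring subunit of ATP synthase, which read 5.81, 5.79, 5.57 and 5.75 at P4 and 3.29, 3.26 and 3.36 at 8W. It fell 5.38-fold (-2.43 ± 0.06, adjusted p = 5.9e-13), against the direction of its list. Of 18 genes of the tricarboxylic acid cycle, 13 rose and 5 did not pass, with a median of 0.55. Pcx, pyruvate carboxylase, which refills the cycle and supplies citrate for lipid synthesis, rose 2.51-fold (1.33 ± 0.06). Mitochondrial biogenesis and translation genes had 13 rises and 7 falls among 31, with 11 that did not pass and a median of 0.08.

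Cytochrome oxidase has subunits that exist in paired forms for different tissues. Of 12 such genes 9 rose, 2 fell and 1 did not pass, although only 5 rose in the deposited values. Cox6a2, the form of heart and skeletal muscle, read -0.42, -0.43, -0.32 and -0.45 at P4 and was not well above background on any 8W array, at least 9.69-fold lower. It stood at 3.02 at P10 and 3.82 at 4W, the ages with the most muscle RNA. Cox6b2, known as a testis form, fell 2.98-fold (-1.58 ± 0.04). The skeletal muscle markers were lower at 8W as well, and their part in the fall of Cox6a2 was not tested.

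Oxidation of fatty acids showed no common shift of size. Of 31 genes of fatty acid oxidation and ketone metabolism, 18 rose, 6 fell and 7 did not pass, and 1 rose and 3 fell at least 2-fold. Acot1, a cytosolic thioesterase induced by fatty acids, read 3.99, 3.98, 4.05 and 3.99 at P4 and -1.78, -1.90 and -1.49 at 8W. It fell 53.0-fold (-5.73 ± 0.08, adjusted p = 6.4e-15), while its near-identical neighbour Acot2 fell 3.18-fold (-1.67 ± 0.06), and probes for such close relatives may share signal. Cpt1a, the widely expressed form of the enzyme that admits fatty acids into mitochondria, fell 2.98-fold (-1.57 ± 0.05). Cpt1b, the form dominant in muscle and brown fat, differed by 0.14 ± 0.05 with overlapping arrays, a call that 15 alternatives lost. Oxct1, which lets a tissue burn ketone bodies, rose 2.58-fold (1.36 ± 0.06), from 4.37, 4.24, 4.46 and 4.33 to 5.71, 5.69 and 5.74. Pdk4, which spares glucose by shutting off pyruvate dehydrogenase, rose 1.31-fold (0.39 ± 0.07), a call lost on slide 2 alone (adjusted p = 0.060).

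Cholesterol synthesis was split. Of 24 genes 14 rose, 7 fell and 3 did not pass, with a median of 0.35. Fdft1, squalene synthase, had levels of 1.11, 1.05, 0.88 and 1.03 at P4 and 4.14, 4.23 and 4.17 at 8W, an 8.95-fold rise (3.16 ± 0.05). Insig1, a sterol-regulated brake on the pathway, rose 3.64-fold (1.86 ± 0.06). Sqle, the next enzyme after squalene synthase, fell 2.48-fold (-1.31 ± 0.09). Squalene synthase and the enzyme that follows it therefore differed in direction.

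Cell division genes all changed in 1 direction. Of the 42 members on the list 40 were measured, and all 40 fell, 39 of them at least 2-fold, with a median of -3.90, or -3.23 when the 9 genes not well above background at 8W are set to their bound. The mean log2 level of the list lay between 1.48 and 1.54 at P4 and between -2.33 and -2.18 at 8W. It was 0.57 at P10 and -2.19 at 4W, so the adult level had been reached by 4 weeks. Only 22 of the 40 remained in the test when a probe had to be above background on every array, and all 22 fell.

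Mki67, the proliferation antigen Ki-67, stood at 4.07, 3.95, 4.09 and 3.96 at P4 and at -2.40, -2.05 and -2.20 at 8W, a 75.1-fold fall (-6.23 ± 0.07, adjusted p = 1.4e-15). Top2a, the topoisomerase that untangles replicated chromosomes, read 1.03, 1.03, 0.72 and 0.96 at P4, was not well above background on any 8W array and was at least 24.5-fold lower. Tk1, thymidine kinase of dividing cells, read 3.48, 3.44, 3.09 and 3.42 at P4 and -3.41, -3.48 and -3.23 at 8W. Its fit gave a 106-fold fall (-6.73 ± 0.09), with 1 of 3 adult arrays well above background. Ccna2, cyclin A2, fell 62.2-fold (-5.96 ± 0.24) and Prc1, a protein of the dividing spindle, 64.2-fold (-6.00 ± 0.13), each with 1 adult array above background. Pbk, a mitotic kinase, Shcbp1 and Pimreg, all among the 12 largest falls of the whole table, were not well above background at 8W and were at least 22.8-fold, 28.0-fold and 40.5-fold lower. Pbk, Shcbp1 and Pimreg were named for size alone and are not on the list. Tk1 is not on the list either.

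The upstream sequences of 3 cell division genes are shown, those with the largest falls among genes with a single window. Both CCAAT and TTTGAA had to lie within 150 bases, because CCAAT boxes and the cell cycle homology region TTTGAA are known elements of promoters active in dividing cells. Genes with several windows or on 1 excluded chromosome were again passed over, so a gene not shown may also hold both. The sequences are from RefSeq on GRCm38.p6, on the strand of the gene and ending at the last base before the start. Capitals mark the letters CCAAT and the letters TTTGAA, read on either strand. Top2a lies at chr11:99024190-99024339, Mki67 at chr7:135716380-135716529 and Cdk1, the mitotic kinase, at chr10:69352913-69353062, all on the minus strand.
Top2a: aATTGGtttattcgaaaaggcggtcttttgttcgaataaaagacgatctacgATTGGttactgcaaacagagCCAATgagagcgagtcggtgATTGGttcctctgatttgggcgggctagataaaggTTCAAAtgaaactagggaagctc
Mki67: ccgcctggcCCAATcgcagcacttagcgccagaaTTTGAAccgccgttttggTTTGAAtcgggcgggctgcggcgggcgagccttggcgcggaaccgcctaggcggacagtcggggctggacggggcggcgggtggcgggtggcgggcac
Cdk1: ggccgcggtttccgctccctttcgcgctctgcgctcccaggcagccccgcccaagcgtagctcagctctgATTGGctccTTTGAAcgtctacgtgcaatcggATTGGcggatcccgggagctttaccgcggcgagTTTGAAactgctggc
Top2a holds 4 CCAAT boxes in either orientation in this stretch and Cdk1 holds 2. Cdk1, chosen for this display, fell 35.3-fold (-5.14 ± 0.16) with 1 adult array above background. In windows of 250 bases before to 50 after the start, CCAAT was found in 26 of the 35 cell division genes with a window (74.3%) against 41.1% of all genes, and TTTGAA in 16 of 35 (45.7%) against 20.2%. In the upstream part alone TTTGAA was found in 8 of 35 (22.9%) against 18.3%, so much of that difference came from the 50 bases after the start. The E2F-like letters TTTCGCGC were found in 5 of 35 (14.3%) against 0.374%. The lists and letters were chosen with results of these data known, and the conditions for printing a sequence were set after its gene's values were seen.

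Inhibitors of the cell cycle mostly moved the other way. Of 16 genes 11 rose, 3 fell and 2 did not pass, with a median of 0.84. Cdkn2b, which blocks the kinases of G1 phase, rose 12.3-fold (3.62 ± 0.13), from -3.92, -3.63, -3.41 and -3.64 to -0.13, 0.01 and 0.03. Rb1, the retinoblastoma protein that holds E2F factors inactive, rose 3.12-fold (1.64 ± 0.05), while its relative Rbl1, itself high in dividing cells, fell 3.51-fold (-1.81 ± 0.09). Cdkn1a, the inhibitor p21, was also lower in adults, 2.92-fold (-1.55 ± 0.03), and already so at P10.

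Imprinted genes, which are expressed from only the maternal or the paternal copy and many of which regulate fetal growth, fell widely. Of 29 genes 21 fell, 4 rose and 4 did not pass, 15 fell at least 2-fold, and the median was -1.16. Mest, among the 12 largest falls of the whole table, stood at 4.89, 4.82, 4.96 and 4.85 at P4 and at -2.17, -2.06 and -2.09 at 8W. The fall was 127-fold (-6.99 ± 0.04, adjusted p = 3.6e-18), and the level at 4W, -1.98, was near that of adults. Nnat, neuronatin, read 5.40, 5.38, 5.39 and 5.38 at P4 and -0.84, -0.87 and -0.81 at 8W, a 75-fold fall (-6.23 ± 0.06). Igf2, the fetal growth factor, read 2.50, 2.48, 2.41 and 2.40 at P4, was not well above background on any 8W array and was at least 59.2-fold lower. Dlk1, an inhibitor of fat cell differentiation made by preadipocytes, read 6.93, 6.97, 7.21 and 6.94 at P4 and 1.70, 1.94 and 1.78 at 8W, a 36.9-fold fall (-5.21 ± 0.08). Plagl1 and Peg3, zinc finger genes of the same growth network, fell 45.1-fold (-5.50 ± 0.05) and 53.7-fold (-5.75 ± 0.21). Zim1, a neighbour of Peg3, was at least 22.4-fold lower.

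A few imprinted genes rose. Zrsr1, a splicing factor gene, read 0.42, 0.08, 0.39 and 0.37 at P4 and 2.72, 2.81 and 2.67 at 8W, a 5.35-fold rise (2.42 ± 0.08). Nap1l5 rose 2.47-fold (1.30 ± 0.12). Of the 14 genes of the fetal growth list, some of which are the same imprinted genes, 10 fell, 2 rose and 2 did not pass.

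The insulin and growth factor axis had 14 falls, 9 rises and 3 genes that did not pass among 26. Its median of -0.22 turned to 0.05 with median scaling. Ghr, the growth hormone receptor, rose 3.13-fold (1.65 ± 0.08), and Fgf1, a growth factor that acts on fat storage, rose 5.41-fold (2.44 ± 0.08). Igfbp2, a binding protein for insulin-like growth factors, was not well above background at 8W and was at least 2.76-fold lower. Igf1 differed by -0.26 ± 0.05 by its probe of highest mean and by -0.997 with the mean of its 4 probes, all of which fell, while the call was lost with median scaling (0.0075).

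Transcripts of the tissue's scaffold were higher in the pups. Of 49 genes of collagen and extracellular matrix, 43 fell, 2 rose and 4 did not pass, 35 fell at least 2-fold, and the median was -1.93. Col1a1, the main fibrillar collagen chain, read 6.57, 6.55, 6.80 and 6.63 at P4 and 3.37, 3.36 and 3.40 at 8W, a 9.61-fold fall (-3.26 ± 0.06, adjusted p = 2.7e-14). Mfap4, a microfibril protein, fell 26.9-fold (-4.75 ± 0.06), from 3.03, 3.00, 3.24 and 3.01 to -1.75, -1.62 and -1.67. Thbs2, a matricellular thrombospondin, and Fbn2, the fibrillin of developing tissue, were not well above background at 8W and were at least 14.5-fold and 12.2-fold lower. Col14a1, which spaces collagen fibrils, fell 12.3-fold (-3.62 ± 0.10). P4ha1, the prolyl hydroxylase of collagen, went against the list and rose 1.55-fold (0.63 ± 0.05). Markers of adipose progenitors and fibroblasts moved with the matrix: 11 of 15 fell, 3 rose, and their mean level lay between 3.40 and 3.56 at P4 and between 2.00 and 2.13 at 8W, with Dpp4, a marker of early progenitors, not well above background in adults. Their part in the matrix result was not tested, and Col1a1 and Fbn1 are in both lists. Gsn, gelsolin, and Ly6a, also on the progenitor list, rose 3.49-fold (1.80 ± 0.08) and 2.31-fold (1.21 ± 0.06).

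General adipocyte genes rose more often than they fell. Of 28, 17 rose, 5 fell and 6 did not pass, with a median of 0.30. Lep, leptin, the hormone of stored fat, read -3.46, -3.31, -3.04 and -3.23 at P4 and -0.60, -0.55 and -0.50 at 8W, a 6.55-fold rise (2.71 ± 0.10, adjusted p = 2.9e-11). Retn, resistin, rose 3.35-fold (1.74 ± 0.09), Cfd, adipsin, 1.97-fold (0.97 ± 0.08) and Pparg, the master regulator of fat cells, 1.70-fold (0.76 ± 0.04). Adipoq, adiponectin, differed by 0.20 ± 0.07 with overlapping arrays, and 12 alternatives lost its call. Cebpb, an early factor of fat cell differentiation that cyclic AMP induces, fell 2.04-fold (-1.03 ± 0.09). Of 15 genes used as markers of white or beige fat, 4 rose and 8 fell. Cited1, used as a beige marker, fell 16.5-fold (-4.04 ± 0.09), from 2.62, 2.51, 2.60 and 2.55 to -1.48, -1.62 and -1.31.

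Hormone receptors changed in most cases. Of 41 hormone and nuclear receptors 28 rose, 9 fell and 4 did not pass, with a median of 0.66. The largest rises included receptors that restrain cyclic AMP: Ptger3, a prostaglandin E receptor, rose 18-fold (4.17 ± 0.12), from -2.10, -2.40, -2.56 and -2.06 to 1.94, 1.9 and 1.82, and Adora1, the adenosine A1 receptor, 14.7-fold (3.88 ± 0.05), from 0.69, 0.66, 0.69 and 0.64 to 4.52, 4.58 and 4.55. Prlr, the prolactin receptor, read 1.42, 1.32, 1.39 and 1.33 at P4, was not well above background at 8W and was at least 30.9-fold lower. Ffar4, a receptor for long-chain fatty acids that is induced by cold, read 3.56, 3.53, 3.61 and 3.54 at P4 and -0.56, -0.29 and -0.44 at 8W, a 15.9-fold fall (-3.99 ± 0.06). Agtr2, the type 2 angiotensin receptor, a gene of fetal tissues, is not on the list. It was among the largest falls of all and at least 17.8-fold lower.

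Thyroid hormone handling had no common direction. Of 12 genes 5 rose, 4 fell and 3 did not pass, not far from the 33.5% of all genes that rose and 33.7% that fell. Dio2 was lower in adults. Thrb, the beta receptor, rose 4.01-fold (2.00 ± 0.06), and Hr, a nuclear corepressor, rose 8.40-fold (3.07 ± 0.09) and Klf9, a transcription factor, 4.09-fold (2.03 ± 0.05). The median of the list was near 0, and these genes do not stand for it. Crym, which binds the hormone in the cytosol, was above background on P4 replicate 1 alone, at -1.56, and its difference of -1.69 ± 0.66 was -0.87 without that array and -4.16 on slide 2 alone, where that array is the only P4 array. The call was lost under 7 alternatives, among them leaving out any of the 8W arrays.

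Clock genes differed strongly, and the hour at which the tissue was taken is not in the labels, so age and time of day cannot be told apart. Of 18 genes 12 rose, 5 fell and 1 did not pass, with a median of 1.08. Nr1d1, the repressor REV-ERB alpha, read -2.28, -2.39, -2.65 and -2.42 at P4 and 2.13, 2.09 and 2.13 at 8W, a 23.5-fold rise (4.55 ± 0.08, adjusted p = 2.6e-14). Dbp, an output factor of the clock, rose 9.70-fold (3.28 ± 0.08) and was higher still at 4W, at 6.44. Bhlhe40 rose 5.97-fold (2.58 ± 0.08). Per2 fell 3.99-fold (-2.0 ± 0.24), and its P4 arrays ran from -1.19 to 0.13, a far wider spread than for the other clock genes named here. Nfil3, which opposes Dbp, fell 3.03-fold (-1.6 ± 0.07).

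Among secreted signals 18 of 29 genes rose, 7 fell and 4 did not pass, with a median of 0.56. Kng1 and Kng2, the kininogen genes, near copies of each other, rose 35.1-fold (5.13 ± 0.07) and 29.9-fold (4.90 ± 0.08). Kng1 read 1.32, 1.25, 1.41 and 1.30 at P4 and 6.46, 6.45 and 6.45 at 8W. Ptgds, which makes prostaglandin D2, rose 24.1-fold (4.59 ± 0.09), and Cxcl14, a chemokine released by active brown fat, 14.8-fold (3.89 ± 0.37). Apln, apelin, a ligand that promotes vessel growth, read 2.67, 2.55, 2.77 and 2.59 at P4 and -1.96, -1.77 and -1.73 at 8W, a 22.1-fold fall (-4.47 ± 0.08). Fstl1, a follistatin-like protein of the connective tissue, fell 7.32-fold (-2.87 ± 0.08).

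Antigen presentation was higher in adults. Of 22 genes 18 rose, 1 fell and 3 did not pass, 16 rose at least 2-fold, and the median was 1.85. Genes of MHC class II led: H2-Aa read -2.20, -2.39, -2.42 and -2.32 at P4 and 1.49, 1.56 and 1.52 at 8W, a 14.5-fold rise (3.86 ± 0.07, adjusted p = 2.7e-14). H2-Eb1 rose 11.8-fold (3.56 ± 0.08), H2-Ab1 10.5-fold (3.39 ± 0.06) and Cd74, the chain that guides class II molecules, 9.76-fold (3.29 ± 0.07). H2-Q10, a class I gene whose product is secreted, is not on the list. It was among the 12 largest rises of the whole table at 84.6-fold (6.40 ± 0.07). On the list, H2-Q4 fell 1.41-fold (-0.49 ± 0.06), a call lost with median scaling. Genes of this family are alike enough for probes to share signal. Of 24 interferon response genes 21 rose, 1 fell and 2 did not pass, with a median of 0.92. Irf1 rose 3.81-fold (1.93 ± 0.07), Cxcl10, a chemokine, 3.75-fold (1.91 ± 0.10) and Ifit3 3.28-fold (1.71 ± 0.14).

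Macrophage and lymphocyte markers are given beside these genes, and no list was made for dendritic cells. Of 13 macrophage markers 5 rose, 3 fell and 5 did not pass. Their mean levels lay between 0.24 and 0.30 at P4 and were 0.827, 0.345 and 0.296 on the 8W arrays. Cd14 rose 3.21-fold (1.68 ± 0.05) and Mrc1, the mannose receptor of resident macrophages, fell 2.51-fold (-1.33 ± 0.04). Of 15 lymphocyte markers 3 rose, 5 fell and 7 did not pass, with mean levels between -2.29 and -2.01 at P4 and between -2.35 and -2.33 at 8W. The B cell gene Ms4a1 was not well above background at 8W and was at least 2.99-fold lower, and its call was lost on slide 2 alone (adjusted p = 0.078). The part of these cells in the MHC result was not tested.

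Detoxifying and antioxidant enzymes rose broadly. Of 32 genes 28 rose, 3 fell and 1 did not pass, 19 rose at least 2-fold, and the median was 1.57. Cyp2e1, a cytochrome P450 that oxidises small molecules, read -4.14, -3.61, -3.13 and -3.87 at P4 and 2.98, 3.09 and 3.06 at 8W, a 106-fold rise (6.73 ± 0.17). Fmo2, a flavin monooxygenase, was at least 25.3-fold higher. Ces1f, a carboxylesterase, rose 24.5-fold (4.62 ± 0.04) and Gsta3, a glutathione transferase, 20.9-fold (4.39 ± 0.25). Cyp4b1 fell 3.14-fold (-1.65 ± 0.10). Several of these genes are also strong in liver. Of 12 liver markers 5 were measured, and 2 of these rose, none fell and 3 did not pass, while 33.5% of all genes rose. With slide as a block 4 rose. The liver markers had mean levels between -3.35 and -2.43 at P4 and between -2.40 and -2.04 at 8W. Their part in the result was not tested.

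Other large rises came from single genes outside the lists. Hsd11b1, which turns inactive into active glucocorticoid, read -1.23, -1.20, -1.16 and -1.18 at P4 and 6.18, 6.21 and 6.21 at 8W, a 168-fold rise (7.39 ± 0.04, adjusted p = 2.7e-19). Sgip1, an adaptor of endocytosis known from neurons, was not well above background on any P4, P10 or 4W array, read 2.28, 2.46 and 2.31 at 8W and was at least 103.6-fold higher than at P4. After birth it was thus measured at 8W alone. Atp4b, the beta subunit of the gastric proton pump, was at least 82.8-fold higher and Apol10b, an apolipoprotein L gene, at least 39.8-fold. Aspg, an asparaginase, rose 91.1-fold (6.51 ± 0.09). Among the falls, Tmem171, a membrane protein gene, was at least 35.8-fold lower, and Sgk2, a serum-induced kinase, fell 67.7-fold (-6.08 ± 0.12) after a mean of 4.16 at P10.

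Ribosomal protein genes fell together by a small amount: 33 of 35 fell, none rose, and the median was -0.46. Rps6 fell 1.58-fold (-0.66 ± 0.04) and Rpl5 1.74-fold (-0.80 ± 0.08). None fell 2-fold, only 6 fell with median scaling and 20 on slide 2 alone, so the scaling of the arrays bears on this call.

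Stress and early response genes had 10 rises, 9 falls and 8 genes that did not pass among 27. Chac1 and Trib3, both targets of the integrated stress response, rose 9.71-fold (3.28 ± 0.06) and 9.26-fold (3.21 ± 0.07), while Atf3, induced by the same pathway, fell 11.3-fold (-3.50 ± 0.09), from 1.76, 1.6, 1.71 and 1.64 to -1.81, -2.03 and -1.64. Of 13 genes of creatine and calcium cycling 5 rose and 5 fell. Slc6a8, the creatine transporter, rose 4.54-fold (2.18 ± 0.07), and Sln, sarcolipin, was at least 11.6-fold lower; sarcolipin is also abundant in muscle, and its level was 1.01 at P10.

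Nerve-related genes had no common direction. Of 18 axon guidance and nerve genes 9 fell, 7 rose and 2 did not pass, while 33.7% of all genes fell and 33.5% rose. Their median of -0.39 turned to 0.18 with no filter on dim probes and to 0.28 with probes above background on all arrays. Gap43, a protein of growing axons, read 0.16, 0.12, 0.31 and 0.14 at P4, was not well above background at 8W and was at least 14.6-fold lower. Sema3c, a guidance cue, fell 10.5-fold (-3.39 ± 0.11). Th encodes an enzyme of noradrenaline synthesis. It read 0.16, 0.65, 0.42 and 0.39 at P4 and 1.51, 1.41 and 1.5 at 8W, a 2.10-fold rise (1.07 ± 0.10). Of 11 Schwann cell markers 3 rose and 5 fell. Gap43 and Th therefore moved in opposite directions.

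**Figure D3:**
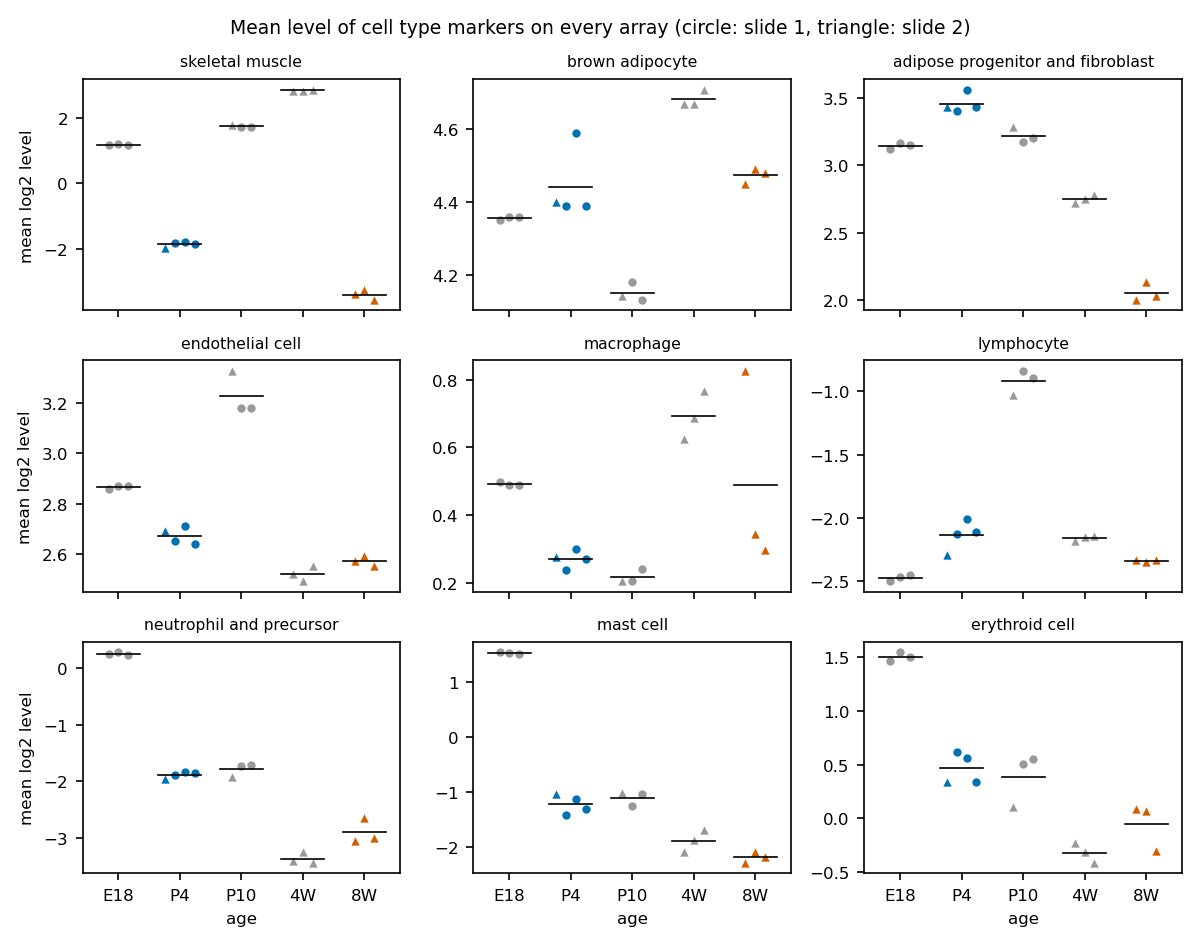
Mean log2 level of 9 sets of cell type markers on every array, relative to the 75th percentile of the array; blue marks P4, orange 8W and grey the other ages, circles slide 1 and triangles slide 2, and lines are means. Skeletal muscle markers are lowest at 8W, next lowest at P4 and far higher at E18, P10 and 4W, and fibroblast markers are lower at 8W than at P4.

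The cell type markers describe what else the tissue held. Of 20 skeletal muscle markers measured, 16 fell, 1 rose and 3 did not pass, and 14 of the 24 on the list were not well above background on any 8W array. Tnni2, a troponin of fast muscle, read 2.10, 2.12, 2.17 and 2.12 at P4 and -1.73, -1.99 and -1.98 at 8W, a 16.3-fold fall (-4.03 ± 0.06), and Tnnt3 was at least 8.16-fold lower. Myl1, a myosin light chain on the same list, rose 2.02-fold (1.01 ± 0.07). Of 10 developing muscle markers 4 fell and 1 rose, and Myh8, the perinatal myosin, was at least 21.9-fold lower. Of 19 endothelial markers 6 rose, 5 fell and 8 did not pass: Flt1, a VEGF receptor, rose 2.10-fold (1.07 ± 0.07), and Lyve1, a marker of lymphatic vessels and some macrophages, fell 4.75-fold (-2.25 ± 0.07). Mast cell, neutrophil and red cell markers were mostly lower in adults. Of 7 mast cell markers 4 fell and 1 rose, with Cpa3 down 11-fold (-3.46 ± 0.10), of 10 neutrophil markers 8 fell and 1 rose, with S100a8 down 4.59-fold (-2.20 ± 0.06), and of 15 erythroid markers 9 fell and 2 rose, with Slc4a1, the anion exchanger of red cells, down 9.32-fold (-3.22 ± 0.12). Of 12 brown adipocyte markers 7 rose, 3 fell and 2 did not pass.

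P10 and 4W lie between the ages compared. Both held more muscle RNA, with mean skeletal muscle levels of 1.76 and 2.85, and P10 also differed in Xist and Ddx3y. The part of these differences in the shares below was not tested. For the 1673 genes that rose at least 2-fold without overlap, a median of 44.7% of the log2 change was reached by P10 and 82.3% by 4W. For the 1978 that fell in this way the medians were 33.8% and 87.9%. At P10, 132 of the risers and 320 of the fallers stood on the opposite side of their P4 level. Lists differed in this: the 21 synthesis genes of this kind had reached a median of 18.6% of their change by P10 and 78.2% by 4W, the 39 cell division genes 24.3% and 97.4%, the 16 antigen presentation genes 52.3% and 72.4% and the 35 matrix genes 27.1% and 73.4%. These shares use the same P4 and 8W arrays as the comparison itself and carry no test. They come from means and not from bounds, and 9 of the 40 cell division genes were not well above background at 8W.

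**Figure D4:**
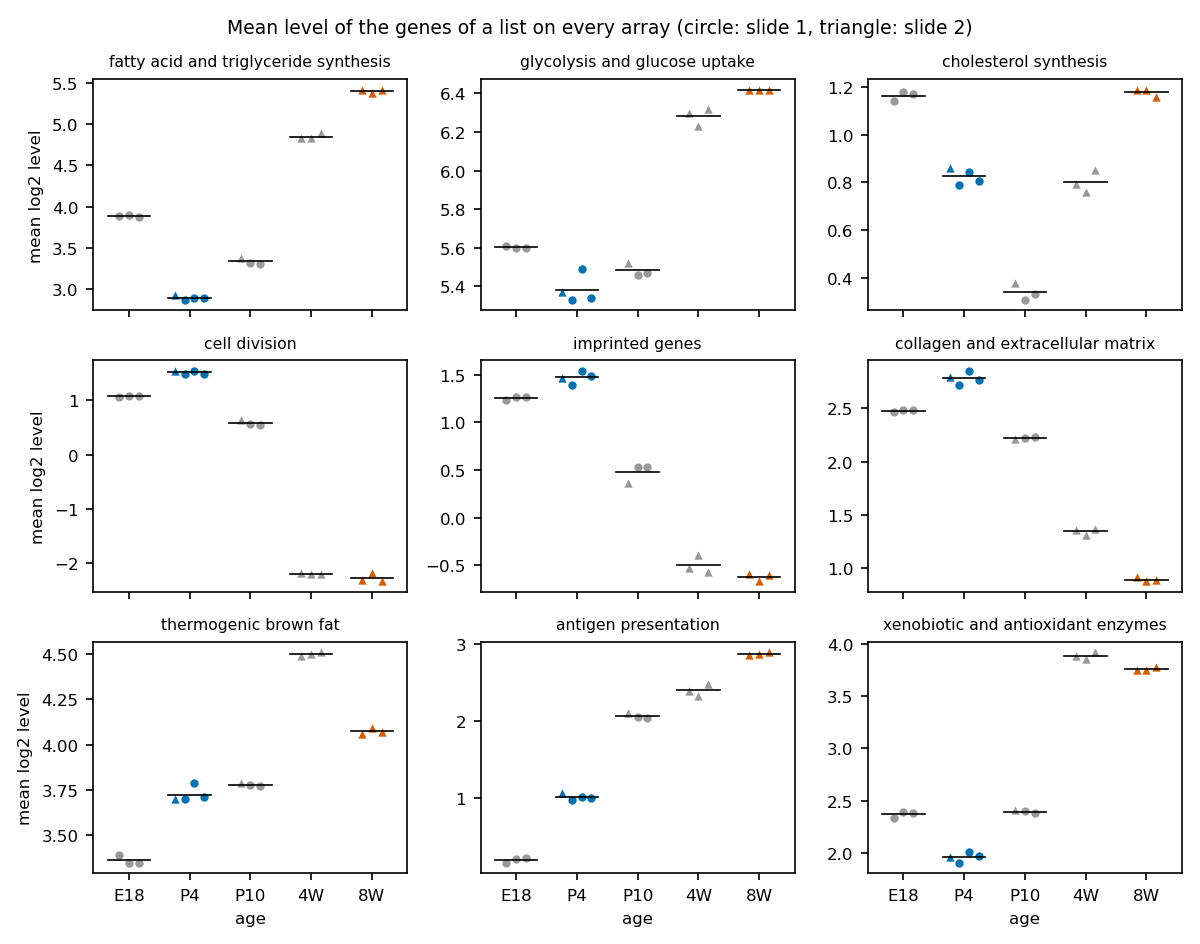
Mean log2 level of the genes of 9 lists on every array, relative to the 75th percentile of the array; blue marks P4, orange 8W and grey the other ages, circles slide 1 and triangles slide 2, and lines are means. Fat synthesis genes are lowest at P4 and highest at 8W, and cell division genes reach -2.19 at 4W, close to their 8W levels between -2.33 and -2.18.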

How the data were processed

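The series holds 16 Agilent 1-colour arrays of mouse brown adipose tissue, and the comparison used the 3 arrays at 8 weeks and the 4 at day 4, with the other ages in the same fit. The deposited scanner files give the processed signal intensity of each spot, background-subtracted by Feature Extraction 11.5.1.1 per the file headers, while the submitters' processing notes name 11.0.1.1; the array design uses build mm9 per the file headers. The deposited value table holds log2 values that proved to be the quantile-normalized processed signal (column medians 5.802), and it was used as an alternative.

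The main values are log2 of the processed intensity minus the 75th percentile of each array over the non-control spots. Non-uniform and outlier spots were left out, copies of a probe were averaged, and probes that exceeded background clearly on fewer than 3 arrays were dropped. For each of the 16436 genes the remaining probe of highest average level stood for the gene. One limma model (limma 3.58.1, R 4.3.3) with age as its only term was fitted to all 16 arrays, the contrast was 8W minus P4, two-sided, and p-values were adjusted by Benjamini-Hochberg over all genes, with 0.05 as the threshold. Every adjusted p in the text comes from this fit or from limma under the setting named. The model was also tested on simulated data.

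A probe not well above background on any array of an age has only a bound there: "at least N-fold" sets the brighter age's mean against the mean, per array, of the higher of the lowest signal well above background and the probe's own. List counts cover members above background on at least 1 array of either age. Named genes are a fixed panel, in each list the 4 largest changes in its common direction and 3 in the other among non-overlapping calls, and the 12 largest rises and falls overall; genes outside this rule are said to be chosen after their values were seen. The members and lists were chosen with earlier results of these data known. Alternatives changed the scaling, background correction, filter, probe summary, slide, replicate number, variance prior, array weights and the arrays left out. Of the probes, 27656 carried a gene symbol and 28025 did not and were not used. Replicate numbers were not used as pairs. Some genes of the lists are not reported here.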

Additional observations from a re-analysis of the deposited data

Results flagged for a closer look

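For every gene and list level named, the 4 P4 arrays were searched for an array whose gap to the nearest other, as a share of the whole range, exceeds Dixon's 95% critical value. Chance marks about 1 in 20 such groups, and 21 of 220 values (9.55%) were marked. Replicate 3 was the array that stood apart in 14 of them, replicate 1 in 5, replicate 2 in 2 and replicate 4 in 0; replicate 3 has the lowest 75th percentile of intensity and replicate 1 lies on the other slide. Whether either bears on the marks was not tested.

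On replicate 3, Cidea read 9.79 (others at most 9.38), Dlk1 7.21 (6.97), Fabp3 4.73 (4.51), Lyve1 0.02 (-0.07), Mfap4 3.24 (3.03) and Sqle 2.18 (1.81), each the highest P4 value. Agtr2 at -0.27 (others at least 0.68), Cdk1 at 1.03 (1.23) and Tk1 at 3.09 (3.42) were the lowest. The mean levels of the thermogenic list (3.79), fatty acid uptake (4.82), the tricarboxylic acid cycle (7.35), the brown adipocyte markers (4.59) and the sex-linked list (-0.93) were highest on that array too. On replicate 1, G0s2 at 4.89 and H2-Q10 at -0.90 were low, and Crym at -1.56, Ifit3 at -1.02 and Sema3c at 1.51 were high. On replicate 2, Zim1 at 0.74 and Zrsr1 at 0.08 were low.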

How the results depend on the processing

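Of the 291 named genes that passed, 243 kept their call under every alternative in which they were tested. The filter for probes above background on all arrays left only 226 of the 295 named genes to test. Of the 291, 100 moved by over 1.5-fold from the reported value under at least 1 alternative. Their sizes are therefore less firm than their direction. The sign changed in 8 of the 291. Scd3 passed in the opposite direction (-0.27 with quantile normalization and in the deposited values), and the others did not pass there: Adgre1 (0.012), Igf1 (0.0075), Isg15 (0.029) and Mrpl3 (0.018) with median scaling, and Cox7a1 (-0.029), Cpt1b (-0.0084, and -0.0043 with normexp) and Lpl (-0.0046) in the deposited values. Cox8b (-0.17) and Fabp4 (-0.26), which had not passed, passed as falls in the deposited values. With array median scaling 3193 genes fell, among them 6 ribosomal protein genes, 3 lymphocyte markers and 1 skin marker, and the medians of the insulin axis (0.0495), pericyte (0.16) and lymphocyte (0.15) lists turned positive. In the deposited values 5 paired cytochrome oxidase genes rose. With normexp background correction 1056 genes fell at least 2-fold, and 3 lymphocyte, 1 skin and 1 cartilage marker fell. With no filter the medians of the nerve (0.18), skin (0.38), cartilage (0.25) and sex-linked (-0.14) lists turned. With probes above background on all arrays, which leaves fewer genes to test, 997 genes fell at least 2-fold, as did, at any size, 22 cell division, 6 fetal growth, 5 nerve, 6 skeletal muscle, 0 developing muscle, 1 lymphocyte, 4 neutrophil, 3 Schwann cell, 1 skin and 0 cartilage genes, 0 sex-linked genes rose, and the medians of the nerve (0.28), developing muscle (0.26) and skin (0.18) lists turned. With slide as a block 4 liver markers rose and 1 skin and 1 cartilage marker fell. On slide 2 alone 20 ribosomal, 2 lymphocyte, 3 platelet and 1 cartilage gene fell, and 4 liver and 2 sex-linked genes rose. In the fit of only the 7 arrays 2 sex-linked genes rose. The count of thymus stroma markers that rose went from 1 to 0 in that fit, with the mean of probes and with the percentile over probes above background on all arrays, a scaling chosen after seeing the data that gave 4885 rises and 6271 falls; it was between 0 and 1 when an array was left out. The cause of these moves was not tested. Leaving out each array in turn gave between 5230 and 5577 rises and between 5246 and 5784 falls. Same-numbered arrays of the ages shared only a number (correlations of their deviations -0.0162, 0.0046 and -0.00839), and with the replicate block 5287 genes rose and 5310 fell. For the sex-linked and cartilage lists the strictest filter left no member for a median. Probes near background limit the folds, which are given as bounds there.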
